A study of Oryzias melastigma with 12 samples.

Results

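The members described here are 100 array probes whose signal was lower at 2 nM of the flame retardant hexabromocyclododecane (HBCD) than in solvent controls, and about as low at 20 nM as at 2 nM, in whole larvae of the marine medaka Oryzias melastigma. They were chosen from 26429 custom probes by their values in the deposited log2 table. Of these, 10448 were well above background on all 12 arrays, 592 of those had every array at 2 and 20 nM below the lowest control, and 332 of those also differed by less than 0.1 on the log2 scale between the mean of the 20 nM arrays and the 2 nM array on the same slide. The 100 with the highest value of the smaller of 2 falls, control minus 2 nM and control minus 20 nM, are the members. The control, 2 nM and 20 nM arrays therefore chose them, and their values on those arrays are a description with no test. The 3 arrays at 0.2 nM entered the choice only through the filter for detection on all 12 arrays.

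The 4 groups, of 3 dishes each, were larvae kept for 7 days in HBCD at 0 (control), 0.2, 2 or 20 nM, starting within 24 hours of hatching. All groups, controls included, were in seawater carrying dimethyl sulfoxide at 1 part in 30000, with most of the water renewed daily. A dish held 100 larvae, and RNA of 30 whole larvae was pooled for each single-dye (Cy3) array, so an array stands for a pool and not for a fish, and dose is the only stated difference between groups. The labels give neither strain nor sex, and since no probe is paired with a gene, the labelled tissue could not be set against marker genes.

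HBCD is an additive brominated flame retardant that dissolves in fat and builds up in aquatic animals. In fish it has been studied for effects on the thyroid axis, oxidative stress and the developing heart. The larval days after hatching are a period when the yolk is used up and organs that were laid down in the embryo grow and mature. Whole larvae carry RNA of all these organs, so a lower level of a transcript in a pool can be fewer cells of a type or less RNA per cell, which cannot be told apart here.

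The arrays lay on 3 slides of 4, and each slide had its own scan. Slide 1 held the 3 controls and 0.2 nM replicate 3, slide 2 held 0.2 nM replicates 1 and 2 with 2 nM replicates 2 and 3, and slide 3 held 2 nM replicate 1 with the 3 arrays at 20 nM. On slide 2 the 2 nM arrays were at positions 1 and 2 and the 0.2 nM arrays at positions 3 and 4, so concentration and position cannot be told apart there. Between 11556 and 12829 probes per array were well above background, and 0 spots were saturated. The spike-in control probes, which read artificial RNA that Agilent supplies for addition in equal amount to each sample, stood apart on 5 arrays. All 8 detected spike-in probes were below the lowest control on 2 nM replicates 1 and 2 and on the 3 arrays at 20 nM. Their values are given beside the results they touch.

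The members were near the control level at 0.2 nM and lower at both higher concentrations. Levels are log2 intensities relative to the 75th percentile of the array, taken over those 10448 detected probes. The member median, as a difference from each probe's control mean, was -0.051, -0.0041 and 0.055 on the 3 controls. It was -0.062, -0.012 and -0.035 at 0.2 nM. It was -0.41, -0.42 and -0.37 at 2 nM, and -0.56, -0.32 and -0.33 at 20 nM. The number of members below their lowest control was 45, 31 and 38 on the 0.2 nM arrays, 99, 99 and 100 on the 2 nM arrays and 99, 96 and 95 on the 20 nM arrays. Over all probes the share below the lowest control was 33.2%, 31.8% and 32.1% at 0.2 nM, 40.0%, 45.4% and 38.6% at 2 nM and 43.7%, 36.8% and 36.8% at 20 nM. All 6 arrays at 2 and 20 nM thus had member medians below those of the other 6 arrays, and 20 nM replicate 1 was the lowest.

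Over the members the median log2 difference from control was -0.39 at 2 nM, with a range of -1.20 to -0.27, and -0.40 at 20 nM, with a range of -1.01 to -0.22. Over all 10448 probes these medians were -0.034 and -0.022. The falls were small: 2 members were at least 2-fold lower than control at 2 nM and 1 was at 20 nM. On the scanner values used here, 98 members had all 2 nM arrays below the lowest control, against 15.0% of all probes with a value on every array. At 20 nM, 91 members had all arrays below the lowest control, against 17.6%. In the limma fit, 6 members were called lower at 2 nM at an adjusted p under 0.05, a call made for 0.335% of all probes, and 17 were called lower at 20 nM, against 0.345%. With slide as a block, 0 members were called at either concentration, against 0.0191% and 0.00957% of all probes. In that fit the slides join only through 0.2 nM replicate 3 and 2 nM replicate 1. Its member medians were -0.42 and -0.41, with median standard errors of 0.23 and 0.29, against 0.13 without the block. The rule used these contrasts, so nothing is read from these counts. The counts were also taken with single arrays left out. Without control replicate 1, 2 or 3 the count at 2 nM was 1, 0 and 1 and that at 20 nM was 4, 1 and 1. Without 2 nM replicate 1, 2 or 3 the count at 2 nM was 16, 2 and 1, and without 20 nM replicate 1 or 2 it was 22 and 3. Without 20 nM replicate 1, 2 or 3 the count at 20 nM was 4, 8 and 1. Shares of all probes called are not given for these fits. A change in the members therefore cannot be told from a change over all probes, and nothing is read from these counts either.

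Scaled to the spike-ins instead of the percentile, much of the fall was not seen. The spike-in median, as a difference from the control mean, was -0.24, -0.61 and -0.021 on the 3 arrays at 2 nM. It was -0.21, -0.23 and -0.23 on the 3 arrays at 20 nM, and 0.075, -0.030 and -0.031 at 0.2 nM. The spike-ins were thus lower on 5 of the 6 arrays where the members were lower, and near control on the other one, 2 nM replicate 3. After scaling to the spike-ins, the member median was -0.15, 0.19 and -0.32 at 2 nM and -0.35, -0.090 and -0.13 at 20 nM. On that scale 10 members had all 2 nM arrays below the lowest control (0.537% of all probes), 29 had all 20 nM arrays below it (1.99%), and 6 had both (0.201%). The median of all probes on that scale was 0.25, 0.56 and 0.051 above control at 2 nM and 0.18, 0.22 and 0.19 above control at 20 nM. This scaling shifts every probe of an array by one amount, so the distance between members and all probes is the same on both scales by construction, and the level against control is what differs. The part of the spike-in shift in the fall was not tested.

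The member ranked first by the rule was CUST_4838_PI414333748, for which the files give no gene. Its level was 1.44, 1.39 and 1.41 in the controls, 0.98, 1.03 and 1.27 at 0.2 nM, 0.40, 0.33 and 0.71 at 2 nM, and 0.25, 0.70 and 0.24 at 20 nM. The 4 groups did not overlap except for 2 nM and 20 nM, and the 0.2 nM arrays lay between control and the higher concentrations. The control mean was 1.41 ± 0.03, and the means under exposure were 1.09 ± 0.16 for 0.2 nM, 0.48 ± 0.20 for 2 nM and 0.40 ± 0.26 for 20 nM (SD, n = 3 each). The log2 difference from control was -0.93 at 2 nM and -1.01 at 20 nM, or 0.525-fold and 0.496-fold.

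CUST_3801_PI414333748, the highest ranked member printed 5 times on the array, had levels of -0.83, -0.67 and -0.95 in controls and -0.97, -1.07 and -1.002 at 0.2 nM. Its levels were -1.37, -1.38 and -1.47 at 2 nM and -1.45, -1.13 and -1.35 at 20 nM. The arrays at 2 and 20 nM were below all others, while the 0.2 nM arrays lay just under the controls. The brightest member, CUST_20570_PI414333748, went the other way at 0.2 nM. It had levels of 2.14, 2.12 and 2.23 in controls, 2.34, 2.35 and 2.31 at 0.2 nM, 1.91, 1.48 and 1.92 at 2 nM, and 1.51, 1.91 and 2.02 at 20 nM. Its 0.2 nM arrays were the highest of the 12 and its 2 and 20 nM arrays the lowest. One of the dimmest members, CUST_20964_PI414333748, had levels of -5.27, -5.05 and -5.28 in controls, -5.08, -5.06 and -4.93 at 0.2 nM, -5.53, -5.56 and -5.34 at 2 nM, and -5.70, -5.48 and -5.41 at 20 nM. Its 2 and 20 nM arrays were again the lowest, and its 0.2 nM and control arrays overlapped.

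The members were level between the higher concentrations by choice on slide 3, and mostly so over the group means. Those means share the 20 nM arrays and 2 nM replicate 1 with that choice, so this is partly by choice too. The median difference of 20 nM minus 2 nM group means was 0.0079, with a range of -0.25 to 0.47, and 74 members lay within 0.1 of zero. Over all probes the median was -0.012, with quartiles of -0.12 and 0.15. The 20 nM mean was below the 2 nM mean in 49 members. The largest of these differences, 0.47, was in CUST_19614_PI414333748. It had levels of -5.09, -5.50 and -4.62 at 20 nM against -5.02, -5.98 and -5.64 at 2 nM, and its 2 nM array on slide 3, replicate 1, was the one nearest the 20 nM mean.

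The difference from control can be written as 5 steps that stay within a slide or within a concentration, and most of the members' fall lay in the third. The first, 0.2 nM minus control on slide 1, had a member median of -0.035 against -0.0079 over all probes and rests on a single array at 0.2 nM. The second, slide 2 minus slide 1 at 0.2 nM, had a median of 0.017 against 0.064. The third, 2 nM minus 0.2 nM on slide 2, had a median of -0.38 against -0.076, with quartiles of -0.51 and -0.28 against -0.24 and 0.097. The fourth, slide 3 minus slide 2 at 2 nM, had a median of 0.016 against -0.012, and the fifth, 20 nM minus 2 nM on slide 3, had a median of 0.00090 against -0.0027. The third step was negative in 97 members (61.7% of all probes) and was the most negative of the first 3 in 83 members (46.0% of all probes). The 2 nM arrays chose the members, so this step is a description. On the deposited scale, which chose the members, the third step had a member median of -0.29 against -0.0062 over all probes, and the next, slide 3 minus slide 2 at 2 nM, had -0.13 against -0.076. On that deposited scale the median of the 10 spike-in probes for the third step was -0.29, with a range of -0.42 to -0.069. The member median of that step was thus about that of the spike-ins. On the percentile scale the spike-in median for the third step was -0.33, with a range of -0.51 to 0.31. On the 2 nM arrays of this step, replicates 2 and 3, the spike-in medians against control were -0.61 and -0.021. Scaled to the 8 detected spike-ins, the member median of the third step was -0.027 against 0.28 over all probes.

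The rule used the 0.2 nM arrays only in the detection filter. The difference between slide 2 (replicates 1 and 2) and slide 1 (replicate 3) at 0.2 nM was therefore tested. Slide 1 gives a single array, so slide, dish and position cannot be told apart in it. The fit held all 12 arrays, but the spread came only from combinations of group and slide with more than 1 array. These include arrays that chose the members. Replicate 3 at 0.2 nM and replicate 1 at 2 nM were each alone in their combination and added nothing to the spread. Of all probes, 285 of 10448, or 2.73%, differed at a Benjamini-Hochberg adjusted p under 0.05 in limma (25 higher and 260 lower on slide 2), and 1929 had an unadjusted p under 0.05. Scaled to the spike-ins 13 probes were called, all lower, and with array weights 383 were called higher and 785 lower. None of the 100 members was called (0 called, 7 at an unadjusted p under 0.05), and the lowest adjusted p of a member was 0.0725. The median standard error of this difference was 0.18 for the members, and it rests on a single array on slide 1. Differences were under 0.5 in size in 96 members. With only the 3 arrays at 0.2 nM in the limma fit, a setting added after the data were seen, 0 probes and 0 members were called (2609 probes and 12 members at an unadjusted p under 0.05), and the lowest adjusted p of a member was 0.139. Without 2 nM replicate 2 or without 2 nM replicate 3, each of which enters only the estimate of the spread, 1 member, CUST_2023_PI414333748, was called lower on slide 2. Without 20 nM replicate 1, CUST_437_PI414333748 was called higher there, and without 0.2 nM replicate 1, CUST_11127_PI414333748 was (log2 difference 1.30). The count over all probes was 57 without 0.2 nM replicate 2, 69 without 0.2 nM replicate 1, 121, 103 and 127 without control replicates 1, 2 and 3, and 616 without 20 nM replicate 1. It was 329 without 2 nM replicate 2 and 329 without 2 nM replicate 3, with 282 lower in each.

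The member with the most negative difference was CUST_2023_PI414333748. Its level at 0.2 nM was -5.47 and -5.58 on slide 2 and -4.74 on slide 1, a difference of -0.79 (SE 0.21, limma adjusted p = 0.0847). Controls were at -4.79, -4.96 and -4.78, and the 2 nM arrays at -5.04, -5.63 and -5.04, so the array at 0.2 nM on slide 1 was as high as the controls and both on slide 2 were lower than 2 of the 2 nM arrays. The most positive was CUST_437_PI414333748, with levels of -4.72 and -4.79 on slide 2 and -5.37 on slide 1, a difference of 0.61 (SE 0.15, limma adjusted p = 0.0725). Neither passed the threshold, and over the alternatives tried their adjusted p in limma ranged over 0.0177 to 0.777 and 0.0127 to 0.953. Both were dim, with processed intensities of 41.2 to 66.9 and 38.9 to 149 over the arrays. The median of the mean intensity over all probes was 441. With normexp and outlying backgrounds replaced, the 2 differences were -0.68 and 0.029.

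The position of the 0.2 nM arrays among the other groups is given as a description, since the control and 2 nM values that set it chose the members. Replicates 1, 2 and 3 at 0.2 nM were nearer the control mean than the 2 nM mean in 72, 87 and 89 of the 100 members, against 48.2%, 50.5% and 67.9% of all probes. All 3 arrays at 0.2 nM were below the lowest control in 9 members, against 13.3% of all probes. On the deposited scale, which chose the members, the count was 14 (13.4% of all probes), and with normexp and outlying backgrounds replaced it was 26 (18.996%). All 2 nM arrays were below the lowest 0.2 nM array in 72 members, against 15.3% of all probes, and all 20 nM arrays were below it in 66 members, against 22.8%. The 2 nM and 20 nM arrays chose the members, and the controls too, so nothing is read from these counts.

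A set of 10 members behaved differently on the 0.2 nM dishes. They were picked after their values were seen, as members whose 0.2 nM replicates 1 and 2, on the same slide, differed by over 0.6. Replicate 1 was below replicate 2 in all 10 of them, and in 235 of the 433 probes of the whole array with as wide a difference (4.15% of the 10444 probes measured on both). Their median difference from control was -0.70, 0.57 and -0.21 on 0.2 nM replicates 1, 2 and 3. It was -0.49, -0.82 and -0.71 at 2 nM and -0.62, -0.52 and -0.32 at 20 nM, against -0.098, -0.032 and 0.086 in controls. Replicate 1 at 0.2 nM was thus as low as the higher concentrations and replicate 2 was above the controls. They include 5 of the 10 members ranked first, among them CUST_11127_PI414333748, ranked second, with levels of -3.66, -1.78 and -3.08 at 0.2 nM against -2.78, -2.52 and -2.52 in controls. Its levels at the higher concentrations were -3.43, -4.12 and -3.89 at 2 nM and -3.48, -3.43 and -3.33 at 20 nM, below all 3 controls, with 0.2 nM replicate 1 among them.

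With the means of the 6 combinations of group and slide removed, members had weakly positive correlations. The median Pearson r between members over the 12 arrays was 0.25 over 4950 pairs, against 0.021 over all pairs of probes, and the quartiles were -0.052 and 0.56. Among the 10 split members the median r was 0.84, and among the other 90 it was 0.27. However, the 10 were picked for the size of a difference that is itself part of these residuals, and it had 1 direction in all 10. These values are a description, since the members share arrays, scaling and slides and only 6 degrees of freedom remain. The probes outside the members whose levels followed the member mean most closely over the 12 arrays were CUST_24709_PI414333748 at r = 0.964 and CUST_6979_PI414333748 at r = 0.952, and neither is among the 332 that met the rule.

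Members were dimmer than the other detected probes. The rule did not rank by brightness. Its detection filter depends on brightness, but all the probes compared here passed it. The members' mean processed intensity had a median of 173, against 441 over all probes, and 70 of 100 were dimmer than the median probe. In 4 equal classes of all probes by brightness there were 43, 27, 17 and 13 members from dimmest to brightest. The median of the third step over all probes was -0.17, -0.12, -0.034 and 0.0045 from dimmest to brightest. In the members it was -0.36, -0.42, -0.35 and -0.41, on 2 nM values that the rule used. The part of brightness in the result was not tested.

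The 86 members printed once were more often in the low-numbered rows of the array than other probes. Rows 1 to 133, 134 to 266, 267 to 399 and 400 to 532 held 31.4%, 33.7%, 20.9% and 14.0% of them, against 23.5%, 25.7%, 26.5% and 24.3% of the 8400 probes printed once. Over all these probes the median of 2 nM minus control was -0.049, -0.038, -0.024 and -0.0056 in the same order of rows. The members' own medians were -0.42, -0.36, -0.37 and -0.36, values that the rule used. The part of array position in the result was not tested. The other 14 members were printed 5 times, in spots across the array. Of their 70 spots, 69 were lower than control at 2 nM and 69 at 20 nM, against 61.9% and 60.8% of the spots of all detected probes printed 5 times. The rule chose these members for being lower, so the counts describe only how evenly their spots share it, and all 5 spots were lower at both concentrations in 13 of the 14. The median SD over the 5 spots of a member within an array was 0.082, against 0.081 over all such probes.

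The edge of the choice was not sharp. The members ranked 99 and 100, CUST_12934_PI414333748 and CUST_6125_PI414333748, had a smaller fall of 0.286 and 0.286 on the deposited scale. The next, CUST_8059_PI414333748 and CUST_11646_PI414333748, had 0.285 and 0.285 and were left out.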

How the data were processed

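The members, lists and tests were chosen with earlier results of these data known. The authors deposited spot intensities per array, which per the file headers came from Agilent Feature Extraction 10.7.3.1 (10.7 per the submitters' processing notes) with background subtraction and detrending within the array and no normalization between arrays. They also deposited a table of log2 values with an equal median in every column (4.34 over the custom probes), whose columns correlated with the scanner values of their array at r of at least 0.9999. Within an array its values thus follow the scanner values, but levels between arrays differ. The member median of the third step was -0.29 on the deposited scale and -0.38 on the scale used here. The sources used here do not state how the table was normalized. That table chose the members, and the results use the scanner values. The log2 processed intensity had outlier-marked spots removed (507 to 729 per array), spots of a probe averaged, and the array's 75th percentile over the 10448 probes detected on every array subtracted. That percentile was 1690 to 2721 intensity units, and the number of arrays limits the precision. Its 2 highest values, 2504 and 2721, were on 0.2 nM replicates 1 and 2, the 0.2 nM arrays of slide 2. The other arrays were at 1690 to 2074, with 0.2 nM replicate 3 on slide 1 at 1785.

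The files name probes by design number only. Of the probe names, 0 were found in a table of 28599 genes, and the files used here hold no probe sequences, so neither genes nor sequences are given. Probes were named by ID by a rule for fixed places: first and last ranks and those just outside, extremes of the slide difference and of brightness, copies on the array, the 0.2 nM position and likeness to the member mean, at most 2 IDs for each.

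limma 3.58.1 in R 4.3.3 was fitted with 1 mean for each of the 6 combinations of group and slide, and with 1 mean per group, on all 12 arrays, with Benjamini-Hochberg adjustment at 0.05 over all probes tested. The fit was tested on simulated data. The files lack the mean signal column that the planned normexp correction (offset 50) needed, so the median signal was used. A version with local backgrounds over 5 times the array median replaced by that median, slide as a block, scaling to the spike-ins and a fit of only the 0.2 nM arrays were added after the data were seen. Python 3.11.15 was used for the counts and medians.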

Additional observations from a re-analysis of the deposited data

How the results depend on the processing

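The difference between slides 2 and 1 at 0.2 nM, 285 calls of all probes, gave 431 with the percentile over all spots, 0 with normexp on the median signal, 454 with outlying backgrounds replaced, 13 with scaling to the spike-ins, 1168 with array weights, 0 with only the 0.2 nM arrays in the fit and 57 to 616 without 1 array. With the replicate block it gave 0, and the member median was then 0.10, against 0.079 over all probes. Deviations from the group means had a median r of 0.039 over 18 pairs of same-numbered arrays (range -0.39 to 0.28). Over 36 other pairs the median was -0.0096 (range -0.26 to 0.48). These deviations also hold slide differences within a group, so they cannot decide whether the numbers pair the samples. Without 0.2 nM replicate 3 that contrast cannot be estimated. Members called lower in it numbered 1 with quantile normalization, the deposited values, replaced backgrounds and array weights, and 0 to 1 without 1 array. This was CUST_2023_PI414333748 each time. Over all probes 355, 357, 443 and 785 were called lower in these settings, in the same order, and 282 without 2 nM replicate 2 or 3. Members called higher numbered 3 with array weights, 1 with the percentile over all spots, 1 without 0.2 nM replicate 1 and 1 without 20 nM replicate 1. Over all probes 383, 32, 17 and 125 were called higher in the same order.

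The count of members called lower at 2 nM, 6 on the main scale, was 0 with normexp, 1 with spike-in scaling, 0 with no filter on dim probes, 57 with array weights, 0 with slide as a block and 0 to 22 without 1 array. The count at 20 nM, 17 on the main scale, was 0 with normexp, 11 with replaced backgrounds, 1 with spike-in scaling and 1 with no filter. It was 66 with array weights, 0 with slide as a block and 1 to 18 without 1 array. Apart from the main scale and the slide block, shares of all probes called are not given for these settings. A change in the members cannot be told there from a change in the calls over all probes. The rule used these contrasts, so nothing is read from the counts.

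The member median of 2 nM minus 0.2 nM was -0.18 with replaced backgrounds and -0.027 with spike-in scaling. Over all probes it was 0.032 and 0.28. Normexp gave member medians of 0.64 for the slide step at 0.2 nM, 1.05 for that at 2 nM and -1.59 for the last step. Over all probes these medians were 0.37, 0.60 and -0.82 with normexp. Under normexp, replacing the outlying local backgrounds, the highest at 34763 units, moved these values. Members with all 0.2 nM arrays below the lowest control, 9 on the main scale, numbered 14 with quantile normalization and with the deposited values, 1 with normexp and 26 with replaced backgrounds, against 13.5%, 13.4%, 4.70% and 18.996% of all probes. Under normexp on the median signal CUST_2023_PI414333748 was 0.62 and CUST_18275_PI414333748 was 0.75 higher on slide 2. The median over all probes in that setting was 0.37.

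The choice of members depended on the values used. Of the 100, the rule chose 98 again on quantile-normalized scanner values and 64 on percentile-scaled scanner values. It chose 45 on normexp and quantile values and 5 on spike-in scaled values. It chose 49 with a level criterion of 0.2 and 32 with group means. Without 1 array it chose 52 to 83 (52, 58 and 57 without 20 nM replicates 1, 2 and 3). Without 2 nM replicate 1 it gives no value. Of the comparisons of summary values with an alternative, 61 were labelled moved and 150 the same. A median was labelled moved only past 0.152, the members' median SD between replicate arrays. Some of the 150 could not change, since the array left out did not enter the value, so the 150 do not measure stability. The cause of the changes was not tested.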
